A study of Mus musculus with 44 samples.

Results

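The genes described here make sterols and fatty acids: 30 genes among the 27179 counted in each library of a study of the histone demethylase Kdm5b in mouse hippocampus. They were chosen by gene symbol, with earlier results of the same libraries known, so their fold changes and p-values describe these libraries and are not independent evidence. By role they comprise 8 genes of the mevalonate and isoprenoid steps, 3 of the squalene and lanosterol steps, 8 of the steps after lanosterol, 5 regulators and carriers of sterol and 6 genes of fatty acid synthesis. All 30 passed the filter on low counts in each of the 12 comparisons made. Their lowest count in any library ran from 404 (Idi1) to 58160 (Scd2).

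RNA was sequenced from the dorsal hippocampus of 36 mice that were 7 to 8 weeks old, 1 library each, in 6 groups of 6 labelled as 3 males and 3 females. WT mice and littermates homozygous for the Kdm5b ΔARID allele (Kdm5bDARID/DARID, called mutant here) were either left in the home cage (0 h, naive) or killed 1 h or 3 h after contextual fear conditioning, in which foot shocks are paired with a new chamber. The allele is a germline deletion that removes the ARID domain and part of the JmjN domain in every tissue from conception, so effects on development and on the adult brain cannot be told apart. Mutant males on C57BL/6J had been crossed with 129S2/Sv females and their heterozygous offspring intercrossed. Around Kdm5b on chromosome 1 mutants therefore carry C57BL/6J sequence and WT mice 129S2/Sv sequence, so strain and genotype cannot be told apart there. Of the 30 genes 1 lies on that chromosome, Hsd17b7, at 35.3 Mb from Kdm5b. Another 8 samples of whole hippocampus from a first cohort were not analysed here.

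Cells make cholesterol from acetyl-CoA through mevalonate, isoprenoid diphosphates, squalene and lanosterol. The transcription factors SREBP, encoded by Srebf1 and Srebf2, sit in the endoplasmic reticulum bound to the chaperone Scap. When sterols are scarce Scap carries them to the Golgi for activation, and when sterols are plentiful the Insig proteins hold the complex back. Most enzymes of the pathway, and Insig1 itself, are known SREBP targets. Because lipoproteins hardly cross the blood-brain barrier, the brain makes its own cholesterol, with much of the synthesis in astrocytes and in oligodendrocytes, which need it for myelin.

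Kdm5b, the targeted gene, had a log2 fold change of -0.08 in mutants over the 36 libraries (SE 0.02, adjusted p = 0.0581), and of -0.11 (SE 0.02, adjusted p = 0.00113) without the 2 libraries described next. Counts over the whole gene include exons outside the deletion, so they do not check the genotype labels. Library totals ran from 40274435 to 107000233 counts (median 66549999). Levels are given as CPM (counts scaled to a common library size with TMM factors), and fold changes are log2 values from edgeR with their standard error (SE), with sex as labelled in the model. Adjusted p-values are Benjamini-Hochberg values over all genes tested. In 2 libraries the sex transcripts went against the label: WT 1 h male 1 (51186 counts on Xist and 0 on Y-linked genes) and mutant 3 h female 2 (36 counts on Xist and 10239 on Y-linked genes). Some counts of genes and some fold changes are also given without them, where stated. Other values, and all counts over lists of marker genes and of other pathway genes, are given only with them. The second of the 2 libraries stood apart in cell type markers as well, with the highest sum of oligodendrocyte markers (11494 CPM) and the lowest sum of neuron markers (9466 CPM) of all 36 libraries. Both also stood at an end of their group in summed CPM of 5 immediate early genes, which rise soon after training. WT 1 h male 1 was lowest (249.3, group median 544.9), and naive WT libraries ran from 239.3 to 393.5 CPM. Mutant 3 h female 2 was highest (708.1, group median 262.4), and mutant libraries at 1 h ran from 459.6 to 706.9 CPM. Their time labels are thus in doubt as well, and whether the 2 libraries were exchanged was not tested. Lists of marker genes of other cell types and neighbouring tissue are given beside each comparison where all markers or all but 1 lay on the same side of 0 in log2 fold change, or at least 2 had p under 0.05 in the same direction. The numbers higher and lower at that p stand in parentheses. This rule was set after the values were seen. In tissue RNA, fewer cells of a type and less RNA per cell cannot be told apart.

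Levels between genes were compared per kilobase of exon, with the union of all exons of a gene in the GENCODE annotation as its length. These lengths need not match the annotation used for counting. On this scale Scd2, a stearoyl-CoA desaturase prominent in brain, stood first with a mean of 258 CPM per kb and a range of 210 to 291 over the 36 libraries. Hmgcs1, which makes HMG-CoA from acetyl-CoA units, followed with 53.0 CPM per kb (range 42.9 to 65.6). Scd1 averaged 42.3 CPM per kb, and its range of 28.6 to 53.5 overlapped that of Hmgcs1. Reads of Scd1 and Scd2, close paralogs, may have been split between them, and the same holds for Acat2. Srebf2 (32.0), Fasn (31.4) and Acly (30.9 CPM per kb) came next, with ranges that overlapped. Srebf2 stood above Srebf1, at 11.2 CPM per kb, and their ranges (29.5 to 34.9 and 8.87 to 14.1) did not overlap. The lowest values were those of Lss (1.78), Acaca (2.60), Stard4 (3.07) and Idi1 (3.08 CPM per kb). The places of Lss and Acaca rest in part on the long unions used (10787 and 17074 bases). Without division by length, Lss stood above Idi1, with medians of 19.4 and 11.5 CPM in naive WT libraries. Fdft1, Lss, Tm7sf2, Srebf1, Srebf2, Acaca and Scd2 each overlap another annotated gene, and the counting of shared reads is not given in the sources used here.

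The promoter windows of the 30 genes were searched for 3 motifs on both strands, in RefSeq windows of GRCm38.p6 from 250 bases before to 50 after a start. Windows were found for 24 of the 30 genes and not for Fdps, Fdft1, Sqle, Stard4, Scd1 and Scd2. CCAAT, the core of the NF-Y site, was in 20 of 24 (83.3%), beside 42.2% of 18458 genes with a window. CACGTG, an E-box, was in 5 of 24 (20.8%), beside 8.99%, namely in Dhcr7, Hsd17b7, Insig1, Sc5d and Scap. TCACNCCAC, a strict form of the sterol regulatory element, was in 1 of 24 (4.17%), Hmgcs1, beside 1.46%. None of these motifs contains another, base composition was not matched, and a match is a description of letters. The looser TCACNNCAC was in 4 of 24 (16.7%), beside 4.33%.

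The 250 bases before the start are shown, on the strand of the gene, for the genes with the most separated WT libraries at 3 h and a window with a CCAAT match (Mvd and Cyp51), for Hmgcs1, the one with the strict element, for Insig1, low at both times, and for Tm7sf2, with the smallest p between genotypes. They lie at chr8:122443423-122443672 (minus strand), chr5:4104698-4104947 (minus), chr13:119690101-119690350 (plus), chr5:28071162-28071411 (plus) and chr19:6067851-6068100 (minus). Capitals mark matches of CCAAT (or ATTGG on the other strand), CACGTG and TCACNCCAC.
Mvd: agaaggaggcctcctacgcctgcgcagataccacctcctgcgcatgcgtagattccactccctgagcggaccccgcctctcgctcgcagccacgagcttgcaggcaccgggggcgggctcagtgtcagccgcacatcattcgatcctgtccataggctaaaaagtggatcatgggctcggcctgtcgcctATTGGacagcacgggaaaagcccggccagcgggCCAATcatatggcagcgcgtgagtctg
Cyp51: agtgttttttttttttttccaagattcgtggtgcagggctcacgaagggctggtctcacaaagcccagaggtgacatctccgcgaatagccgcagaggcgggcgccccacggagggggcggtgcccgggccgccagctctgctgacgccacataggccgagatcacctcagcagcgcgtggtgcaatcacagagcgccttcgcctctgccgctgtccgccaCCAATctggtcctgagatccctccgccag
Hmgcs1: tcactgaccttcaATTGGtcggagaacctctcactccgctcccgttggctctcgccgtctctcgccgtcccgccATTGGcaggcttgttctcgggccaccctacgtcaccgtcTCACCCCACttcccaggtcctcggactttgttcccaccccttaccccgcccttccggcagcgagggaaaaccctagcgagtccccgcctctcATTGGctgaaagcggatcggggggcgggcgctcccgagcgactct
Insig1: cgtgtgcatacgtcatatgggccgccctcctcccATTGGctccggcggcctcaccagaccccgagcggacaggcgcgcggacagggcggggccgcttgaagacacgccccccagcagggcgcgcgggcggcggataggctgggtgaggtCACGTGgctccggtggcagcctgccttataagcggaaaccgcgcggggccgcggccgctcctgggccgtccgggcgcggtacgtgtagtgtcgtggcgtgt
Tm7sf2: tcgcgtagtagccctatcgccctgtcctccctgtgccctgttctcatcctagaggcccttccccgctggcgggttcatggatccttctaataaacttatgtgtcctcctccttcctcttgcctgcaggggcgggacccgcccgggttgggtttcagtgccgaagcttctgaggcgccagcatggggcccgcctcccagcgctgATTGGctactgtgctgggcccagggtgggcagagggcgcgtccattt

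Within these 250 bases Mvd holds 2 matches of CCAAT, Hmgcs1 holds 3 beside its sterol regulatory element, Insig1 holds 1 beside an E-box, and Cyp51 and Tm7sf2 hold 1 each. The strict element of Hmgcs1 begins 137 bases before the start. Acat2, whose WT libraries at 3 h were also fully separated from the naive ones, has a window with 0 matches of the 3 motifs and is not shown.

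The question of the time course is whether these genes changed after training. In WT mice at 3 h, 13 of the 30 genes were lower than at 0 h at an unadjusted p under 0.05 and 0 were higher, beside 3.66% of all 17438 genes tested that were lower and 4.57% that were higher at that p. None of the 30 passed an adjusted p under 0.05 in edgeR, where 0% of all genes did, so these differences did not pass the test. DESeq2 called 62 genes in this comparison, among them Mvd (adjusted p = 0.00554) and Cyp51 (adjusted p = 0.0108). The median log2 fold change of the 30 genes was -0.105, beside -0.003 for all genes tested. Neither of the libraries with discordant sex transcripts belongs to these groups. With any 1 of the 12 libraries left out, 11 to 14 of the 30 were lower at that p. A fit of all 36 libraries with 1 common spread gave 9 lower and 0 higher.

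Of the 19 sterol enzymes, 17 had a log2 fold change below 0 and 11 were lower at p under 0.05. They were 5 of 8 genes of the mevalonate and isoprenoid steps (Acat2, Hmgcs1, Mvd, Idi1 and Fdps), 2 of 3 of the squalene and lanosterol steps (Fdft1 and Sqle) and 4 of 8 of the later steps (Cyp51, Msmo1, Hsd17b7 and Sc5d). Among the regulators and carriers Insig1 and Stard4 were lower, and 0 of the 6 genes of fatty acid synthesis were. The median log2 fold change was -0.145 over the sterol enzymes and -0.028 over the genes of fatty acid synthesis.

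Mvd, which decarboxylates mevalonate diphosphate to isopentenyl diphosphate, was at 18.5, 21.0 and 22.5 CPM (lowest, median and highest library) in WT mice at 0 h. At 3 h it was at 14.7, 16.0 and 18.2 CPM, every library below every naive one. Its log2 fold change was -0.35 (SE 0.07, adjusted p = 0.373). Cyp51, the demethylase that acts on lanosterol, was at 62.6, 67.9 and 74.4 CPM at 0 h and at 55.3, 57.4 and 61.3 CPM at 3 h. These libraries did not overlap either, and the log2 fold change was -0.24 (SE 0.05, adjusted p = 0.373). Acat2, a thiolase that joins 2 acetyl-CoA molecules, was the third of the 30 genes with libraries that did not overlap, and such a separation toward lower values was seen in 0.178% of all genes tested.

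Stard4, a carrier of cholesterol between membranes, had the lowest fold change among the 30 genes. It ranged from 16.9 to 20.5 CPM (median 18.6) at 0 h and from 11.6 to 18.0 CPM (median 13.2) at 3 h, an estimated log2 difference of -0.39 (SE 0.11, adjusted p = 0.421). Of the 6 libraries at 3 h, 4 lay below every naive library. Insig1 ranged from 53.5 to 68.3 CPM (median 61.4) at 0 h and from 39.7 to 60.5 CPM (median 49.4) at 3 h. The log2 difference was -0.33 (SE 0.09, adjusted p = 0.421), and 5 of 6 libraries were below every naive one. Hmgcs1 went from a median of 254 CPM at 0 h to 232 CPM at 3 h, with an estimated difference of -0.19 on the log2 scale (SE 0.06, adjusted p = 0.453). The other 8 genes that were lower had log2 fold changes from -0.21 (Hsd17b7) to -0.13 (Fdft1).

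**Figure D1:**
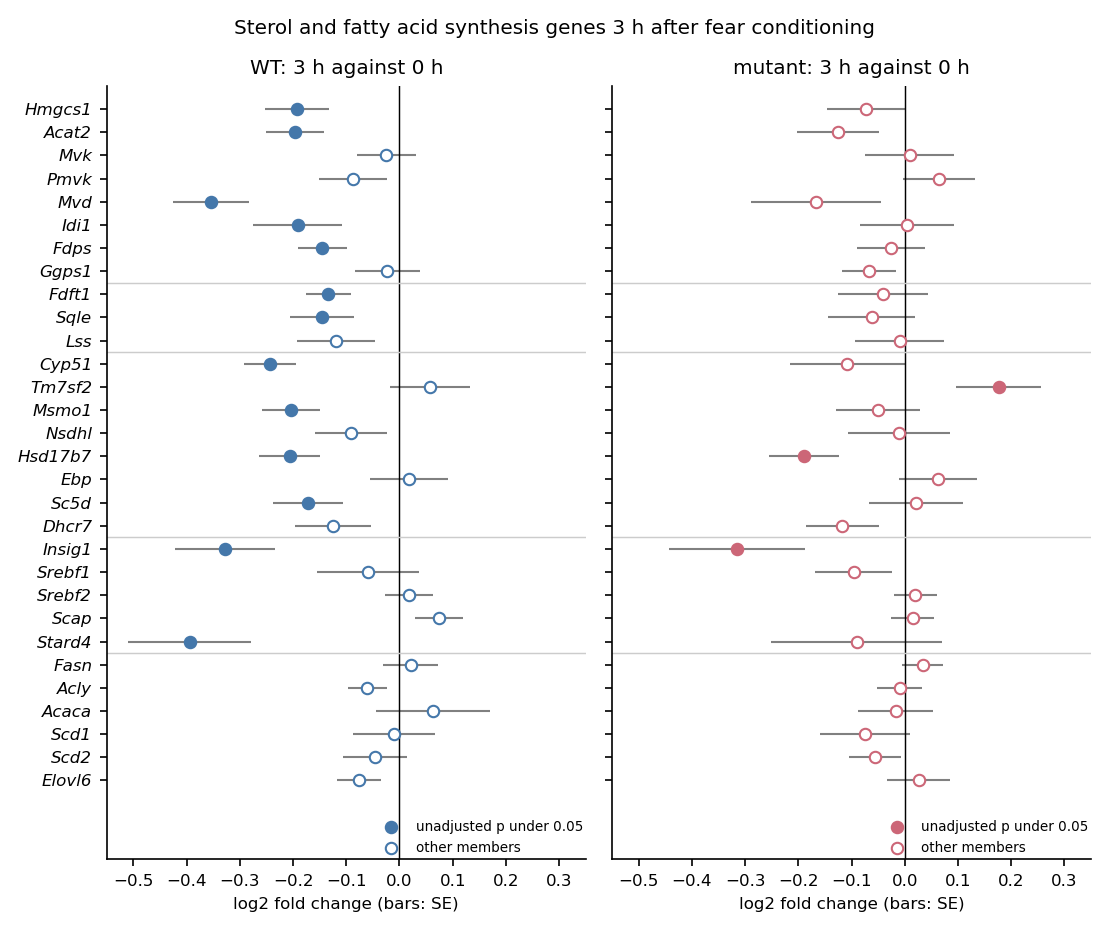
Log2 fold change at 3 h against 0 h for the 30 genes in WT (left) and mutant (right) libraries, with bars of 1 standard error; lines separate the roles, from the mevalonate steps at the top to fatty acid synthesis at the bottom, and filled points have an unadjusted p under 0.05. In WT 13 genes are filled on the lower side, among them 11 of the 19 sterol enzymes, and no gene in either panel passed an adjusted p under 0.05 in edgeR.

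In mutant mice at 3 h, 2 of the 30 genes were lower than at 0 h at p under 0.05 (Hsd17b7 and Insig1) and 1 was higher (Tm7sf2), beside 3.68% and 4.89% of all 17285 genes tested. The median log2 fold change was -0.033, and -0.056 without the library mutant 3 h female 2. None passed an adjusted p under 0.05 in edgeR, where 0% of all genes did, or in DESeq2, which called 125 genes. This count rested on the library mutant 3 h female 2, whose sex and time labels are in doubt. Without it 7 of the 30 genes were lower (Dhcr7, Insig1, Hsd17b7, Acat2, Mvd, Cyp51 and Hmgcs1) and 0 were higher, beside 5.11% and 6.13% of all 17372 genes in that fit. There the log2 fold change was -0.28 for Mvd (SE 0.10, adjusted p = 0.312) and -0.21 for Cyp51 (SE 0.08, adjusted p = 0.36), against -0.17 (SE 0.12) and -0.11 (SE 0.11) with it. With all libraries the comparison had 6 of 6 choroid plexus markers above 0 (median 1.147), 5 of 6 striatum markers below 0 (1 lower, median -0.361), 5 of 6 thalamus markers below 0 (median -0.095) and 4 of 4 blood markers above 0 (median 0.425). Microglia markers were below 0 in 6 of 8 (median -0.124). Their part in the values was not tested.

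That library was at 22.1 CPM for Mvd and 81.3 CPM for Cyp51, the second value being the highest of all 36 libraries for Cyp51. Hsd17b7, a ketosteroid reductase of the later steps, was at 23.2, 26.4 and 28.8 CPM (lowest, median and highest) in mutants at 0 h and at 20.9, 23.2 and 24.5 CPM at 3 h. All 6 libraries at 3 h lay below the naive mean, and the log2 fold change was -0.19 (SE 0.07, adjusted p = 0.447). Insig1 was at 57.0, 61.9 and 75.7 CPM at 0 h and at 36.8, 51.3 and 67.9 CPM at 3 h, where 5 of 6 libraries were below every naive one. Its log2 fold change was -0.31 (SE 0.13, adjusted p = 0.527), and -0.41 (SE 0.11, adjusted p = 0.206) without mutant 3 h female 2, beside -0.33 in WT mice.

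Whether the change at 3 h differed between genotypes was tested with an interaction term over 24 libraries. At p under 0.05 it was above 0 in 0 of the 30 genes and below 0 in 0, beside 0.775% and 0.748% of all 17926 genes tested, and no gene passed an adjusted p under 0.05 (0%) in edgeR or DESeq2. The larger count of lower genes in WT than in mutants is thus not shown to be a difference between genotypes. Of the 19 sterol enzymes, 18 had an interaction above 0, so that the log2 fold change was higher in mutants than in WT mice, with a median over the 30 genes of 0.076. Without the library mutant 3 h female 2 the median was 0.032 and 16 of the 19 were above 0. The same interaction with all libraries had 10 of 10 oligodendrocyte markers above 0 (median 0.186), 4 of 5 endothelium markers above 0 (median 0.005), 6 of 6 choroid plexus markers above 0 (median 1.465) and 5 of 6 striatum markers below 0 (median -0.351). The comparison also had 5 of 6 thalamus markers below 0 (median -0.100) and 4 of 4 blood markers above 0 (median 0.626). Their part in the values was not tested. The smallest p-values were those of Pmvk, a kinase of the mevalonate route (interaction 0.15, SE 0.09, adjusted p = 1), and Idi1, the isomerase of isopentenyl diphosphate (0.20, SE 0.12, adjusted p = 1). Pmvk had medians of 26.8 and 24.4 CPM in WT at 0 h and 3 h (ranges 23.7 to 28.4 and 23.1 to 27.6) and 25.8 and 28.0 CPM in mutants (23.0 to 29.6 and 23.5 to 28.6). Idi1 had medians of 11.5 and 9.74 CPM in WT (ranges 9.94 to 13.5 and 9.07 to 11.7) and 10.7 and 10.7 CPM in mutants (9.22 to 11.7 and 8.86 to 12.1). The groups of both genes overlapped in each genotype.

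**Figure D2:**
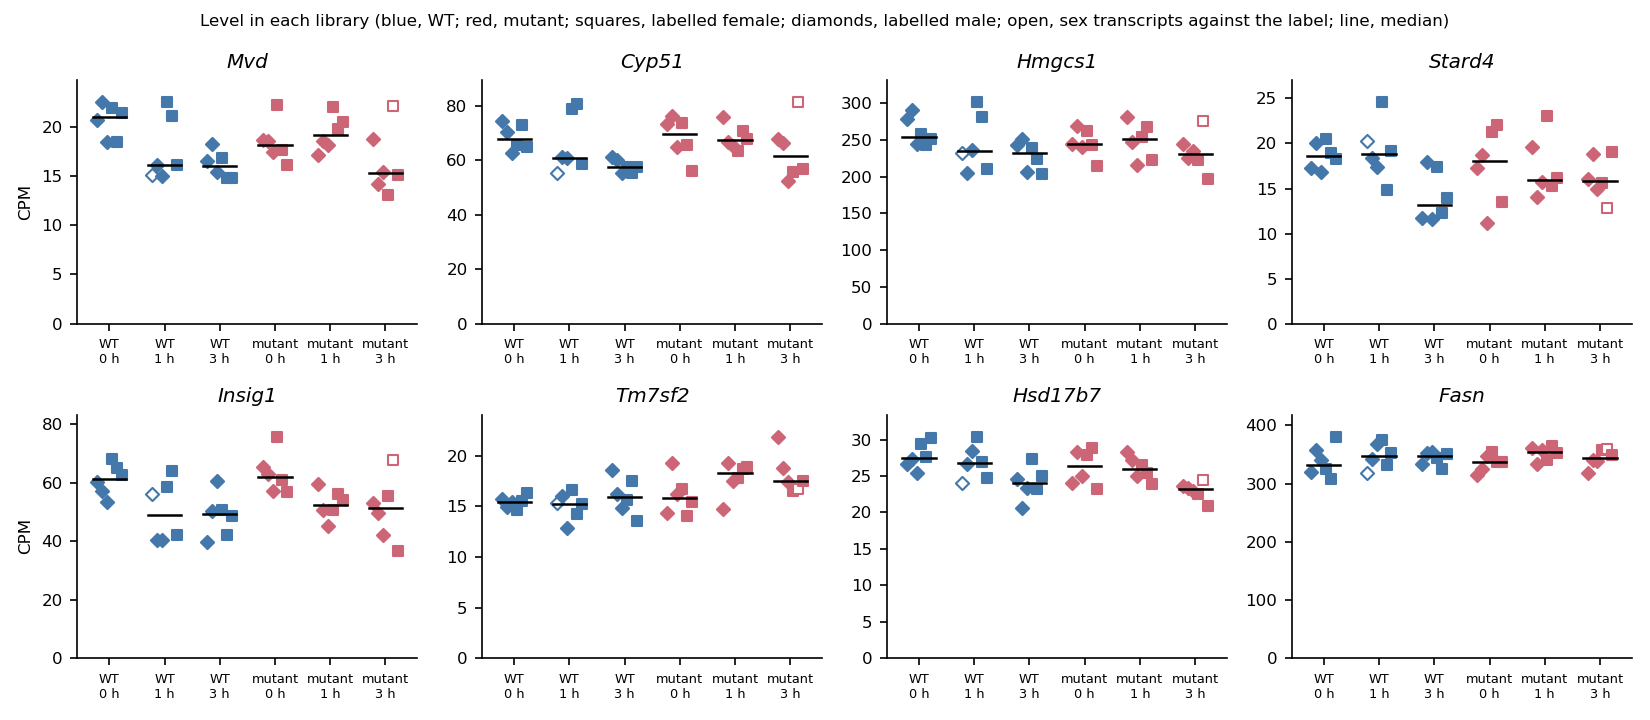
CPM of 8 genes in each of the 36 libraries by genotype and time, with 6 libraries and a line at the median per group; the vertical axes start at 0. Mvd and Cyp51 show WT libraries at 3 h below all WT libraries at 0 h, and the open square in the mutant 3 h group, the library mutant 3 h female 2, lies at 22.1 CPM for Mvd and 81.3 CPM for Cyp51.

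At 1 h after training, in WT mice, 3 of 30 were lower at p under 0.05 (Fdps, Insig1 and Mvd) and 0 were higher, beside 2.44% and 2.92% of all 17319 genes tested. None passed an adjusted p under 0.05 (0% of all genes in edgeR). The median log2 fold change was -0.050. Without the library WT 1 h male 1, 3 were lower (Insig1, Fdps and Acat2) and 1 was higher (Elovl6), beside 2.51% and 4.17% of 17439 genes, with a median of -0.032. Among marker lists in WT mice there were 4 of 5 endothelium markers above 0 (median 0.102), 6 of 6 choroid plexus markers below 0 (median -0.707), 5 of 6 striatum markers below 0 (median -0.113) and 5 of 6 thalamus markers above 0 (median 0.134). The comparison also had 3 of 6 neocortex markers above 0 (2 lower, median -0.033) and 4 of 4 blood markers above 0 (median 0.439). Their part was not tested. In mutants 1 was lower (Insig1) and 1 was higher (Elovl6), beside 4.84% and 6.23% of 17282 genes, and the median was 0.012. None of the 30 was among the 0.312% of genes called by edgeR there. Comparisons at 1 h and 3 h within a genotype share the same naive libraries.

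Insig1 was the gene with low values at both times in both genotypes. In WT mice killed 1 h after training it was at 40.4, 49.0 and 63.8 CPM (lowest, median and highest). The groups overlapped, with an edgeR estimate of -0.29 against naive mice (SE 0.10, adjusted p = 0.922), and of -0.36 (SE 0.10, adjusted p = 0.479) without WT 1 h male 1. In mutants it was at 45.4, 52.4 and 59.4 CPM, an estimate of -0.26 (SE 0.08, adjusted p = 0.188), and 5 of 6 libraries were below every naive mutant. DESeq2 called Insig1 in mutants at 1 h (adjusted p = 0.0445). The same comparison had 10 of 10 oligodendrocyte markers below 0 (median -0.041), 6 of 6 choroid plexus markers below 0 (median -0.727), 6 of 6 striatum markers below 0 (3 lower, median -0.411), 5 of 6 thalamus markers above 0 (median 0.196) and 6 of 6 neocortex markers above 0 (median 0.099). The striatum sum ran from 76.9 to 142.9 CPM in naive mutants and from 75.3 to 96.9 CPM at 1 h, and the part of these markers in the value of Insig1 was not tested. The interaction of genotype and time was 0.02 (SE 0.14) at 1 h and 0.01 (SE 0.16) at 3 h. Without the libraries of discordant sex it was 0.08 (SE 0.14) at 1 h and -0.08 (SE 0.15) at 3 h.

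Fdps, which makes farnesyl diphosphate, was at 30.4, 33.3 and 34.8 CPM in naive WT mice and at 28.8, 29.0 and 33.3 CPM at 1 h. The log2 difference was -0.15 (SE 0.05, adjusted p = 0.922), with 4 of 6 libraries below every naive one. Elovl6, an elongase of long-chain fatty acids, was at 75.5, 82.9 and 85.4 CPM in naive mutants and at 84.9, 86.8 and 92.3 CPM at 1 h. The log2 difference was 0.11 (SE 0.04, adjusted p = 0.321), and 5 of 6 libraries were above every naive one.

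The interaction at 1 h was above 0 at p under 0.05 for Mvd alone and below 0 for none of the 30, beside 1.49% and 2.29% of all 17907 genes tested, of which 0% passed an adjusted p under 0.05. Beside it there were 9 of 10 oligodendrocyte markers below 0 (median -0.082), 5 of 5 endothelium markers below 0 (median -0.092), 5 of 6 striatum markers below 0 (1 lower, median -0.448) and 5 of 6 thalamus markers above 0 (median 0.093). The comparison also had 5 of 6 neocortex markers above 0 (2 higher, median 0.134) and 4 of 4 blood markers below 0 (median -0.442). Their part in the values was not tested. At 1 h Mvd was at 15.0, 16.1 and 22.5 CPM in WT mice and at 17.1, 19.2 and 22.0 CPM in mutants, after 16.1, 18.1 and 22.2 CPM in naive mutants. The interaction was 0.29 (SE 0.12, adjusted p = 0.999), and 0.27 (SE 0.13) without WT 1 h male 1. Of the WT libraries at 1 h, 4 lay below every naive library, while WT 1 h female 1 was at 22.5 CPM. For Fdps the interaction was 0.15 (SE 0.08, adjusted p = 0.999), and its mutant libraries were at 27.1, 30.0 and 33.5 CPM at 0 h and 26.4, 30.9 and 31.7 CPM at 1 h.

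From 1 h to 3 h, 3 of 30 genes were lower (Stard4, Sc5d and Hsd17b7) and 1 was higher (Scap) in WT mice at p under 0.05, beside 4.24% and 3.17% of 17388 genes. Without the library WT 1 h male 1, 5 were lower (Elovl6, Stard4, Hsd17b7, Cyp51 and Msmo1) and 0 were higher, beside 4.75% and 3.65% of 17520 genes. Stard4 was at 14.8, 18.8 and 24.6 CPM at 1 h in WT, where 1 library was below every naive one, against 4 at 3 h (3 h against 1 h, log2 fold change -0.43, SE 0.14, adjusted p = 0.546). Scap was at 105, 106 and 115 CPM at 1 h and 109, 115 and 117 CPM at 3 h (log2 fold change 0.08, SE 0.03, adjusted p = 0.604). In mutants 2 were lower, Hsd17b7 and Dhcr7, and 0 were higher, beside 3.75% and 4.3% of 17247 genes. Hsd17b7 was at 23.96, 25.98 and 28.28 CPM at 1 h (log2 fold change to 3 h -0.18, SE 0.05, adjusted p = 0.428). Dhcr7, the last reductase on the way to cholesterol, was at 35.3, 38.0 and 40.0 CPM at 1 h and at 30.5, 33.6 and 40.9 CPM at 3 h (log2 fold change -0.14, SE 0.06, adjusted p = 0.601). Without the library mutant 3 h female 2, the values were -0.20 for Dhcr7 (SE 0.05, adjusted p = 0.172) and -0.21 for Hsd17b7 (SE 0.05, adjusted p = 0.161). In that fit 7 of the 30 were lower in mutants and 0 were higher, beside 4.7% and 4.29% of 17367 genes. With all libraries neither comparison called any gene in edgeR (0% in each), and without the discordant ones 3 genes were called in WT and 18 in mutants, none of them among the 30. From 1 h to 3 h WT mice had 10 of 10 oligodendrocyte markers below 0 (1 lower, median -0.148), 6 of 8 oligodendrocyte precursor markers above 0 (2 higher, median 0.039), 7 of 8 microglia markers below 0 (4 lower, median -0.133) and 4 of 5 endothelium markers below 0 (1 lower, median -0.097). They also had 6 of 6 choroid plexus markers above 0 (median 0.489) and 4 of 4 blood markers below 0 (median -0.606). From 1 h to 3 h mutants had 8 of 8 oligodendrocyte precursor markers above 0 (1 higher, median 0.069), 6 of 6 choroid plexus markers above 0 (3 higher, median 2.002), 5 of 6 striatum markers above 0 (median 0.125) and 5 of 6 thalamus markers below 0 (1 lower, median -0.352). In mutants there were also 5 of 6 neocortex markers below 0 (2 lower, median -0.047) and 4 of 4 blood markers above 0 (median 0.434). Their part in these values was not tested.

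The sterol enzymes were also counted library by library, as how many of the 19 exceeded their own median over all 36 libraries. In naive WT libraries 9 to 15 did (median 13), and in WT libraries at 3 h 1 to 9 did (median 4.5). In WT libraries at 1 h the count ran from 1 to 19, with WT 1 h female 1 at 19 and WT 1 h female 3 at 1. Mutant libraries held 2 to 17 (median 12.5) at 0 h, 4 to 18 (median 13.5) at 1 h and 3 to 16 (median 7.5) at 3 h, with mutant 3 h female 2 at 16 and the other 5 libraries at 11 or fewer. The 6 genes of fatty acid synthesis did not show this order in WT: 3 of 6 was the median at both 0 h and 3 h.

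Cell type markers were read beside these counts. The 10 oligodendrocyte markers were all detected, and their sum ran from 5078 to 9578 CPM (median 7045) in naive WT libraries and from 4810 to 8899 CPM (median 6246) at 3 h, with 9 of 10 markers below 0 in log2 fold change and 1 lower at p under 0.05. In mutants the sum ran from 6083 to 8832 CPM (median 7523) at 0 h and from 5545 to 11494 CPM (median 7919) at 3 h. The library with all 19 enzymes above their medians, WT 1 h female 1, had 9088 CPM, the third highest sum. WT 0 h female 1, with 14 of 19 enzymes above their medians, had 5078 CPM, the second lowest sum. At 3 h WT mice had 9 of 10 oligodendrocyte markers below 0 (1 lower, median -0.124), 7 of 8 microglia markers below 0 (3 lower, median -0.144), 5 of 6 choroid plexus markers below 0 (median -0.238), 5 of 6 striatum markers above 0 (1 lower, median 0.088) and 3 of 4 blood markers below 0 (median -0.203). Of 10 astrocyte markers 5 were above and 5 below 0. Choroid plexus markers varied between libraries from 42.7 to 7959 CPM, with medians of 2093 and 2195 CPM in WT and 192.3 and 1473 CPM in mutants at 0 h and 3 h. The part of cell composition in the lower values was not tested.

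**Figure D3:**
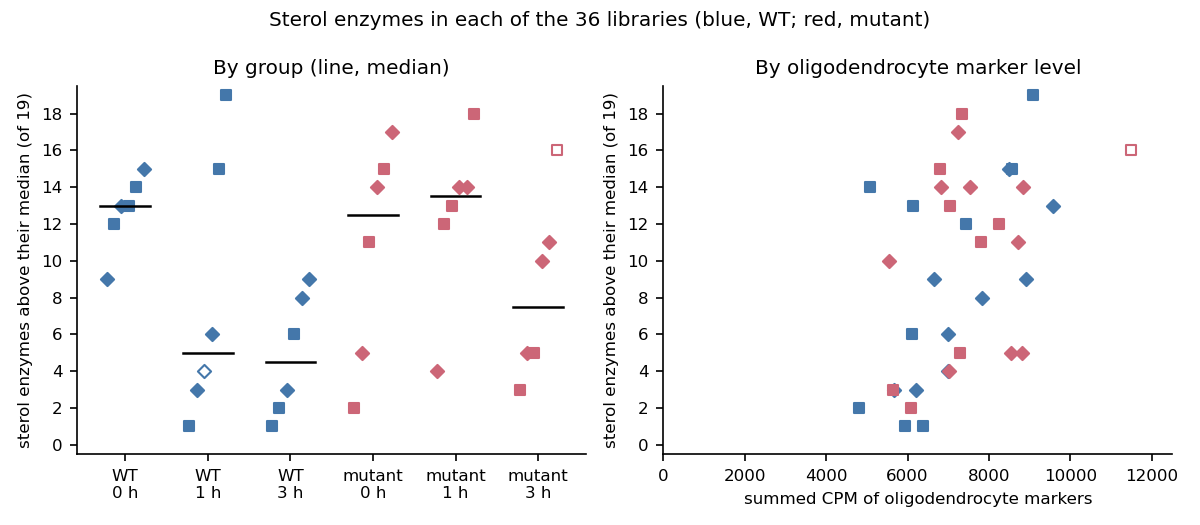
Number of the 19 sterol enzymes above their own median over 36 libraries, for each library by group with a line at the median (left) and against the summed CPM of 10 oligodendrocyte markers (right). WT libraries hold 9 to 15 at 0 h and 1 to 9 at 3 h; the open square at 11494 CPM is the library mutant 3 h female 2, with 16, and open symbols mark sex transcripts against the label.

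The genotype comparisons ask whether the mutant differed from WT at each time. In naive mice 2 of 30 genes were lower in mutants at p under 0.05 (Fdps and Sqle) and 0 were higher, beside 2.83% and 3.32% of all 17336 genes. Of the 19 sterol enzymes 15 were below 0, with a median log2 fold change of -0.068 beside -0.002 for all genes. At 1 h and at 3 h the tally ran the other way, with 14 of 19 above 0 at each time (medians 0.025 and 0.032). Without the libraries of discordant sex 14 were above 0 at 1 h and 7 at 3 h. Beside the values at 0 h there were 10 of 10 oligodendrocyte markers above 0 (median 0.099), 9 of 10 astrocyte markers above 0 (1 higher, median 0.082), 6 of 6 choroid plexus markers below 0 (1 lower, median -1.985) and 6 of 6 neuron markers below 0 (median -0.055). The comparison also had 5 of 6 striatum markers above 0 (3 higher, median 0.50), 5 of 6 thalamus markers above 0 (median 0.300) and 5 of 6 neocortex markers below 0 (median -0.132). In naive WT and mutant libraries the striatum sums ran from 73.3 to 109.3 and from 76.9 to 142.9 CPM, and the thalamus sums from 52.1 to 78.6 and from 65.4 to 126.3 CPM. Their part in the values of the sterol enzymes was not tested. Fdps was at 27.1, 30.0 and 33.5 CPM in naive mutants, against 30.4, 33.3 and 34.8 CPM in WT (log2 fold change -0.15, SE 0.06, adjusted p = 0.76). Sqle, the squalene epoxidase, was at 52.2, 62.1 and 70.6 CPM against 63.6, 66.0 and 76.5 CPM, with 5 of 6 mutants below every WT library (log2 fold change -0.16, SE 0.07, adjusted p = 0.784).

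At 1 h 1 gene was higher in mutants (Tm7sf2) and 0 were lower, beside 4.33% and 4.28% of 17261 genes. Beside these values there were 5 of 8 oligodendrocyte precursor markers below 0 (2 higher and 1 lower, median -0.007), 7 of 8 microglia markers below 0 (1 lower, median -0.082), 4 of 5 endothelium markers below 0 (1 lower, median -0.041) and 6 of 6 choroid plexus markers below 0 (4 lower, median -2.091). At 1 h there were also 5 of 8 hippocampal neuron markers below 0 (2 higher, median -0.041), 5 of 6 thalamus markers above 0 (median 0.238) and 4 of 4 blood markers below 0 (median -0.518). Their part was not tested. Mvd had the second smallest p, with a log2 fold change of 0.14 (SE 0.08, adjusted p = 0.635). Without the library WT 1 h male 1, 2 were higher (Tm7sf2 and Pmvk) and 0 were lower, beside 5.27% and 5.06% of 17375 genes. At 3 h 3 were higher (Sc5d, Pmvk and Tm7sf2) and 1 was lower (Scap), beside 3.28% and 3.09% of 17394 genes. Mutants at 3 h had 10 of 10 oligodendrocyte markers above 0 (median 0.240), 6 of 10 astrocyte markers above 0 (2 higher, median 0.044), 7 of 8 microglia markers above 0 (median 0.044) and 6 of 6 choroid plexus markers below 0 (median -0.629). They also had 5 of 6 neuron markers below 0 (1 lower, median -0.048), 5 of 6 striatum markers above 0 (median 0.119), 6 of 6 thalamus markers above 0 (median 0.122), 5 of 6 neocortex markers below 0 (1 higher, median -0.052) and 4 of 4 blood markers above 0 (median 0.581). The oligodendrocyte sum ran from 4810 to 8899 CPM in WT and reached 5545 to 11494 CPM in mutants, the highest being mutant 3 h female 2, and the part of these markers was not tested. Without the library mutant 3 h female 2, 1 was higher (Sc5d) and 2 were lower (Scap and Sqle), beside 4.4% and 3.65% of 17516 genes, and the median log2 fold change went from 0.033 to -0.011. Sc5d, a sterol desaturase, was at 36.5, 38.8 and 42.0 CPM in WT and 38.7, 43.8 and 52.4 CPM in mutants (log2 fold change 0.19, SE 0.07, adjusted p = 0.746, and 0.14, SE 0.06, without that library). Scap was at 109, 115 and 117 CPM in WT and 101, 108 and 114 CPM in mutants (log2 fold change -0.08, SE 0.04, adjusted p = 0.766). None of the 30 was called by edgeR in these comparisons, where 0%, 0% and 0.0115% of all genes were at 0 h, 1 h and 3 h. DESeq2 called none of them either.

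Over all 36 libraries, with time and sex in the model, 1 of 30 genes was higher and 1 was lower in mutants at p under 0.05, beside 7.48% and 7.72% of all 18186 genes. In this comparison there were 10 of 10 oligodendrocyte markers above 0 (median 0.125), 7 of 10 astrocyte markers above 0 (3 higher, median 0.026), 6 of 6 choroid plexus markers below 0 (6 lower, median -1.633) and 6 of 6 neuron markers below 0 (2 lower, median -0.042). It also had 5 of 8 hippocampal neuron markers below 0 (2 higher and 1 lower, median -0.070), 5 of 6 striatum markers above 0 (3 higher, median 0.204) and 6 of 6 thalamus markers above 0 (3 higher, median 0.309). Of the markers, edgeR called Gja1 of astrocytes (log2 fold change 0.13, adjusted p = 0.0352) and Tdo2 of hippocampal neurons (0.41, adjusted p = 0.0243). Over the 3 times, WT libraries held choroid plexus sums of 42.7 to 7959 CPM, against 53.3 to 3621 CPM for mutant ones, and the part of these markers in the genotype values was not tested. The median log2 fold change was 0.002, and -0.022 without the libraries of discordant sex. None of the 30 was among the 1.3% of genes (237) that edgeR called. Tm7sf2, a sterol reductase of the later steps, was the higher one, with a log2 fold change of 0.16 (SE 0.05, adjusted p = 0.075). It was at 14.7, 15.5 and 16.3 CPM in naive WT and 14.1, 15.9 and 19.3 CPM in naive mutants, which overlapped. At 1 h it was at 12.9, 15.2 and 16.6 CPM in WT and 14.7, 18.3 and 19.3 CPM in mutants, with 5 of 6 mutants above every WT library (log2 fold change 0.25, SE 0.07, adjusted p = 0.357). At 3 h it was at 13.5, 15.9 and 18.6 CPM in WT and 16.5, 17.5 and 21.9 CPM in mutants. DESeq2 called Tm7sf2 over the 36 libraries (adjusted p = 0.0416). The gene, on chromosome 19 at 6062821 to 6067850 of GRCm38.p6, overlaps Vps51 in the annotation, and reads of the 2 could not be told apart if counted without strand.

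Sqle was the lower gene over the 36 libraries (log2 fold change -0.11, SE 0.05, adjusted p = 0.219). Its medians were 66.0, 62.6 and 61.3 CPM in WT at 0, 1 and 3 h and 62.1, 58.9 and 57.0 CPM in mutants, lower in mutants at each time, with ranges that overlapped. Without the libraries of discordant sex 4 of 30 were lower over the pooled libraries (Sqle, Fdps, Hsd17b7 and Nsdhl), with Sqle at -0.13 (SE 0.04, adjusted p = 0.105), and 1 was higher (Tm7sf2), beside 9.13% and 7.89% of 18283 genes. Hsd17b7, on chromosome 1, was at -0.08 (SE 0.04, adjusted p = 0.237) in that fit.

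**Figure D4:**
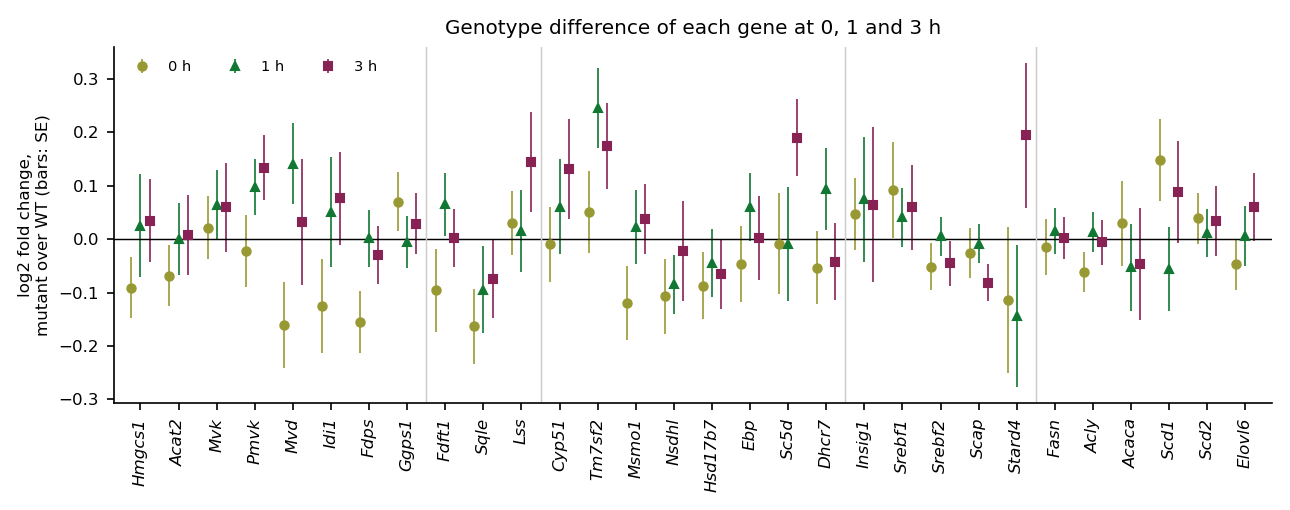
Log2 fold change of mutant over WT for the 30 genes at 0 h, 1 h and 3 h with bars of 1 standard error; vertical lines separate the roles. Tm7sf2 is above 0 at each time, at 0.25 at 1 h. Of the 19 sterol enzymes 15 are below 0 at 0 h, while 14 are above 0 at 1 h and at 3 h. Without the library mutant 3 h female 2, which is included here, 7 of 19 are above 0 at 3 h. None of the 30 genes passed an adjusted p under 0.05 in edgeR at any time.

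Other genes of the pathway were read from 4 lists. The list of other sterol pathway genes and SREBP control holds 20 genes, of which 18 were tested. Over the 36 libraries edgeR called 1 of them, Insig2, as lower in mutants, with 3 lower and 0 higher at p under 0.05, beside 7.72% and 7.48% of all genes. Insig2, the second protein that holds the complex of SREBP and Scap in the endoplasmic reticulum, fell by 0.13 on the log2 scale in mutants (SE 0.03, adjusted p = 0.00428). It lies on chromosome 1 at 13.2 Mb from Kdm5b, where WT mice are expected to carry more 129S2/Sv and mutants more C57BL/6J sequence, so an effect of the strain and one of the allele cannot be told apart. Of the genes called over the 36 libraries 45 of 236 with a known chromosome (19.1%) lay on chromosome 1, beside 5.95% of those tested. In WT it was at 45.2, 48.7 and 51.7 CPM at 0 h, 42.9, 47.5 and 50.2 CPM at 1 h and 44.3, 49.5 and 52.7 CPM at 3 h. In mutants it was at 41.6, 46.1 and 49.5 CPM at 0 h, 40.5, 42.8 and 45.1 CPM at 1 h and 41.7, 44.0 and 46.2 CPM at 3 h. The medians were lower in mutants at each time while the ranges overlapped. Without the libraries of discordant sex the pooled log2 fold change of Insig2 was -0.14 (SE 0.03, adjusted p = 0.00145). At 3 h in WT mice this list had 1 gene higher and 1 lower of 18 at p under 0.05, beside 4.57% and 3.66% of all genes, with a median log2 fold change of 0.026.

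The list of other genes of fatty acid synthesis, elongation and desaturation had 20 tested, with 0 higher and 3 lower in mutants over the 36 libraries at p under 0.05, beside 7.48% and 7.72% of all genes, and none called. At 3 h 1 was higher and 1 lower in WT, beside 4.57% and 3.66% of all genes, and 2 were higher and 4 lower in mutants, beside 4.89% and 3.68%. Hacd2, a dehydratase of fatty acid elongation, had the smallest p of this list over the pooled comparison and those with 0 h, with a log2 fold change of 0.21 at 3 h in mutants (SE 0.06, adjusted p = 0.324). It was at 37.0, 39.0 and 42.5 CPM in naive mutants and 40.0, 46.2 and 48.5 CPM at 3 h. Without the libraries of discordant sex its log2 fold change at 3 h in mutants was 0.24 (SE 0.05, adjusted p = 0.131). The list of sterol export, turnover and LXR genes had 15 tested, with 3 lower in mutants over the 36 libraries at p under 0.05, beside 7.72% of all genes, and none called. Its smallest p was that of Soat1, which esterifies cholesterol (log2 fold change -0.12, SE 0.04, adjusted p = 0.102), with medians of 31.8, 31.7 and 29.3 CPM in WT and 27.3, 30.2 and 26.9 CPM in mutants at 0, 1 and 3 h. Without the libraries of discordant sex it passed the test (-0.14, SE 0.04, adjusted p = 0.0213), and it too lies on chromosome 1, at 21.8 Mb from Kdm5b. None of its 15 genes passed p under 0.05 at 3 h in either genotype. Of 10 genes of isoprenoid use, which attach farnesyl and geranylgeranyl groups or make dolichol and ubiquinone, none passed p under 0.05 in the pooled comparison or those with 0 h. From 1 h to 3 h in mutants 1 was higher, beside 4.3% of all genes. The smallest p over the pooled comparison and those with 0 h was that of Nus1 (log2 fold change -0.04, SE 0.02, adjusted p = 0.345).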

How the data were processed

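Dorsal hippocampus RNA of 36 mice was sequenced as paired-end mRNA libraries. The files deposited by the authors hold whole-number read counts for each gene, made with STAR 2.7.8a on mm10 and featureCounts 2.0.1. The annotation and the strand and multimapping settings are not given in the sources used here. Totals ran from 40274435 to 107000233 counts, and 1.28% of counts lay on genes without a RefSeq name. Each library is 1 mouse, and none of 90 pairs within groups held identical counts.

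Counts were fitted in edgeR 4.0.16 (R 4.3.3) with TMM scaling, filterByExpr at a minimum count of 10, labelled sex as a covariate and the robust quasi-likelihood test, separately for each of 12 comparisons, with Benjamini-Hochberg adjustment at 0.05. Alternatives were DESeq2 1.42.0 with and without sex, no covariate, all genes kept without filtering, only genes with at least 10 counts in each library, a replicate block, all 36 libraries in 1 fit, RLE scaling, rRNA and mitochondrial genes left out, and fits without each library or without both libraries of discordant sex. The procedure was also run on simulated counts, for the comparison between genotypes at 1 h only, and no result given here rests on that run.

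The members and lists were chosen with earlier results of these data known. Values by library were given for members with an adjusted p under 0.05, the 2 members of smallest p per comparison, and pathway genes outside the members that passed or had the smallest p of their list over the pooled comparison and those with 0 h. Stard4, Hmgcs1 and the other members named were chosen after their values were seen.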

Additional observations from a re-analysis of the deposited data

Results flagged for a closer look

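In 12 of 180 sets of 6 libraries (1 gene in 1 group) the highest or lowest library stood far from the others. Chance gives about 1 in 20, so this count is near the chance share and the sets are listed as a description only. WT 1 h female 1 was the highest of its group for Idi1 (15.4 CPM, next 10.9), Acly (182.6 CPM, next 162.3) and Acaca (54.8 CPM, next 45.2). WT 0 h female 1 was the highest for Sqle (76.5 CPM, next 67.7) and the lowest for Srebf1 (50.1 CPM, next 64.1). WT 3 h male 3 was the lowest for Acat2 (20.5 CPM, next 23.5) and the highest for Srebf1 (79.7 CPM, next 60.4). WT 3 h female 2 was the lowest for Scap (109.1 CPM, next 114.5) and Acly (150.5 CPM, next 161.6). In mutants, Pmvk was lowest in 3 h female 1 (23.5 CPM, next 27.4), Ebp was lowest in 1 h male 3 (12.99 CPM, next 14.01), and Dhcr7 was highest in 3 h female 2 (40.9 CPM, next 34.1). No interaction of genotype and time passed an adjusted p under 0.05 for any of the 30 genes.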

How the results depend on the processing

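Of 981 alternative values for 41 member fold changes, 972 kept their direction and side of the threshold, 9 kept the direction and passed it, and 0 reversed. Of 309 alternative medians over the members 23 had the other sign, in 4 comparisons whose median was near 0; without the libraries of discordant sex the median between genotypes went from 0.033 to -0.011 at 3 h and from 0.002 to -0.022 pooled. None moved by more than 0.076, the SD of such medians between libraries of a group, which is wider than most of the medians. The number of genes called depended on the tool. DESeq2 with sex called 16, 100, 51 and 561 genes between genotypes at 0 h, 1 h, 3 h and pooled, 7, 62 and 62 in WT (1 h and 3 h against 0 h, then 3 h against 1 h), 367, 125 and 80 in mutants, and 2 for the interaction at 1 h. Without a covariate it called 23, 105, 41 and 510, then 9, 51 and 49, then 404, 129 and 70, then 1. edgeR called 0, 0, 2 and 237, then 0, 0 and 0, then 54, 0 and 0, then 0. Both forms of DESeq2 called 1 member between pooled genotypes (Tm7sf2), 2 in WT at 3 h (Mvd and Cyp51) and 1 in mutants at 1 h (Insig1). The cause was not tested.

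Without both libraries of discordant sex, edgeR called 41, 18 and 507 genes between genotypes at 1 h, 3 h and pooled, 3 in WT at 1 h and 3 from 1 h to 3 h, and in mutants 1 at 3 h and 18 from 1 h to 3 h. Without the sex covariate 3 were called between genotypes at 1 h. The fit of all 36 libraries called 1 in WT at 1 h and 1 from 1 h to 3 h. With no filter, or with 10 counts required in every library, 1 was called in mutants from 1 h to 3 h. With the replicate block 5 genes were called between genotypes at 1 h and 0 at 3 h. The median correlation of same-numbered libraries of the same sex in different groups was 0.016 over 90 pairs, from -0.215 to 0.280. For libraries of the same sex with other numbers it was -0.017 over 180 pairs, from -0.365 to 0.329. Whether the numbers pair the samples was not tested.

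With each library left out in turn, calls between genotypes ran from 0 to 5 at 0 h, 0 to 41 at 1 h, 0 to 18 at 3 h and 169 to 368 pooled. They ran from 0 to 3, 0 to 8 and 0 to 3 in WT and from 26 to 86, 0 to 10 and 0 to 18 in mutants, in the order above. Members called ran from 0 to 1 pooled, the 1 being Tm7sf2 without mutant 0 h male 1 (adjusted p = 0.0448). In WT at 3 h, members higher at p under 0.05 ran from 0 to 1. In mutants at 3 h, members lower at p under 0.05 ran from 1 to 7 and higher from 0 to 1. The higher member was lost (0) in DESeq2 without covariate, without the sex covariate, without the discordant libraries and with the replicate block, and 7 were lower without the discordant libraries.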
